A study of Mus musculus with 16 samples.

Results

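The cells described here are GABAergic cells sorted from the olfactory bulb of newborn mice, and the comparison sets their transcripts against those of the total brain. They are the 3 arrays titled as olfactory bulb GABAergic cells, of 16 arrays in all. The mice carried the GAD67-eGFP transgene on a C57Bl/6 background and were at postnatal day 1. Green fluorescent protein in this line marks cells that express glutamate decarboxylase 67, and fluorescent cells were collected by flow cytometry after the tissue had been dissociated. Sorted cells from cortex, striatum and cerebellum (3 arrays each) and from whole brain (4 arrays) came from the same line and age. The labels give 6 mice dissected for the regional samples and call the arrays biological replicates, without saying how the mice were divided among them or whether regions share mice. Every array carried, in its other dye, the same kind of reference: RNA of the whole brain of 4 mice of the same age, unsorted. No genotype is given for the reference mice. All groups and the reference passed through a global PCR amplification, and 250 ng of each cDNA was labelled.

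The olfactory bulb is the first relay of the sense of smell. Most of its neurons are GABAergic granule and periglomerular cells, which are born in the lateral ganglionic eminence and the subventricular zone and reach the bulb by chain migration along the rostral migratory stream. Dlx homeobox genes drive the GABAergic fate in the forebrain, and Sp8, Etv1 (also called Er81), Pax6, Meis2, Tshz1 and Pbx3 mark lineages of bulb interneurons, among which calretinin (Calb2), calbindin (Calb1) and dopaminergic (Th) cells are the classical kinds.

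The measurement was a log2 ratio of the signal of sorted cells over the signal of total brain on the same spot, so that a value of 1 is 2-fold higher in the sorted cells and a value of -1 is 2-fold lower. On the 3 olfactory bulb arrays the median spot signal was 179.3, 268.4 and 262.6 units for the sorted cells and 96.4, 115.5 and 92.0 units for total brain. The scanner software rated 80.1% to 86.5% of the spots as clearly brighter than background for sorted cells and 76.4% to 77.5% for the reference. On the 9 arrays of the other regions the median reached from 150.9 to 717.5 units for sorted cells and from 108.4 to 254 units for total brain, so 2 of the 3 olfactory bulb arrays had a dimmer reference channel than every other regional array. Across genes, which are not independent replicates, the olfactory bulb arrays correlated with each other at r from 0.943 to 0.958, with cortex at 0.886 to 0.925, with striatum at 0.829 to 0.893 and with cerebellum at 0.776 to 0.834. With the arrays of cells sorted from whole brain r was lowest, at 0.621 to 0.684 over 12 pairs. These arrays share the reference RNA.

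The mean ratio of the 3 arrays was tested against 0 by limma over 27261 genes, with 1 probe, the brightest, standing for each gene. A gene is said to be called, higher or lower, where its p after Benjamini-Hochberg adjustment was under 0.05. The reference counts as 1 control sample, so its own spread is not in the test, and the dyes were not swapped, so a dye effect of a probe cannot be told apart from a difference between sorted cells and brain. By this test 67.9% of genes were called: 10006 genes (36.7%) were higher in olfactory bulb GABAergic cells than in total brain and 8514 (31.2%) were lower. With a 2-fold difference as well there were 1730 higher (6.35%) and 2206 lower (8.09%). The ratios reached from -4.50 to 4.19 with a median of 0.03 over all genes, and the SD over the 3 arrays had a median of 0.11. The replicates thus lay close together, 11150 genes were above 0 on all 3 arrays and 9573 below 0 on all 3.

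**Figure D1:**
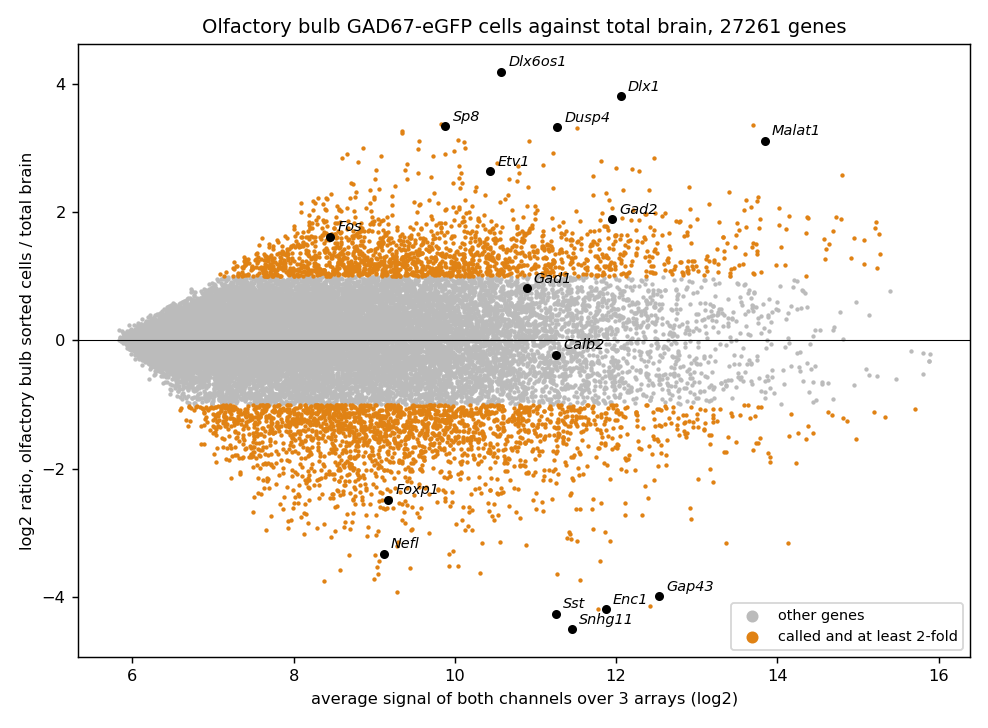
Log2 ratio of olfactory bulb sorted cells over total brain (vertical axis, mean of 3 arrays) against the average signal of both channels (horizontal axis, log2) for 27261 genes; orange points were called with at least a 2-fold difference. Dlx6os1 at 4.19 stands at the top and Snhg11 at -4.50 at the bottom, and the ratios of dim genes on the left spread less than those of bright ones.

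Transcripts of the Dlx family and other forebrain GABAergic factors led the genes that were higher in the sorted olfactory bulb cells. Dlx6os1, the long non-coding RNA on the strand opposite Dlx6 that is also known as Evf2, had ratios of 4.29, 4.25 and 4.04 on the 3 arrays. Its mean of 4.19 ± 0.07 (SE from the fit, n = 3) is an 18.3-fold higher signal than in total brain (adjusted p = 4.98e-19). Both of its probes were higher. Labelling by the Klenow enzyme kept no stated strand, so signal of Dlx6os1 and of its partner Dlx6 cannot be told apart where their probes overlap. Dlx1, a homeobox factor of GABAergic progenitors and interneurons, had ratios of 3.84, 3.79 and 3.81 and averaged 3.82 ± 0.07, a 14.1-fold difference. The 3 arrays of Dlx1 lay close together (SD 0.02) and above all 9 arrays of the other regions.

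The promoter of Dlx6os1 is shown because it belongs to the gene with the highest ratio and holds the letters TAATTA, a core that homeodomain proteins such as the Dlx factors bind. The sequence is from RefSeq on GRCm38.p6, chr6:6869484-6869783 on the minus strand, from 250 bases before to 50 after a transcript start, written 5′ to 3′ with TAATTA in capitals. TAATTA reads the same on both strands.
Dlx6os1: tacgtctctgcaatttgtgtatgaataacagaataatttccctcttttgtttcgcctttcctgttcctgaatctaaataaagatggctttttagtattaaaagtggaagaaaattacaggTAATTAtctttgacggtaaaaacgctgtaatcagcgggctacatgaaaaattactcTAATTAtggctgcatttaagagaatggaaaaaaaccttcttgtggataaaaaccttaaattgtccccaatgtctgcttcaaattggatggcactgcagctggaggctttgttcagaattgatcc
It holds 2 copies, 130 and 74 bases before the start. Dlx6os1 had 2 promoters in the table, and the promoter shown was picked by its number of copies. Of all 32851 promoters of this length in the table, 5.29% hold TAATTA. Of the 15 genes named as highest, 10 had a promoter in the table and 2 of them, Dlx6os1 and Sp8, held the letters. These 10 genes had 18 promoters, of which 3 held them. A match of letters is not a binding site.

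Of the 11 measured genes on a list of Dlx and forebrain GABAergic transcription factors, 8 were higher in the sorted olfactory bulb cells and 3 were lower, with a median ratio of 1.81, against 0.03 for all genes tested. Of all genes 36.7% were higher and 31.2% lower. Sp8, a zinc finger factor needed for bulb interneurons, had ratios of 3.34, 3.33 and 3.36, which overlapped with none of the other regions' arrays. Dlx6 averaged 2.93 ± 0.08, Dlx5 2.77 ± 0.08 and Dlx2 1.81 ± 0.09. Gsx2 was higher by only 0.27 ± 0.07. Gsx1 and Isl1 were among the 3 lower genes. Gsx1, a progenitor factor of the ganglionic eminences, had ratios of -1.90, -2.39 and -2.29, and Isl1, a factor of striatal projection neurons, averaged -0.34 ± 0.09. Isl1 was not called once the first olfactory bulb array was left out (-0.21).

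The genes that make and move GABA were higher by less than the Dlx genes. Of 6 measured, 4 were higher and 1 was lower, beside 36.7% higher and 31.2% lower of all genes. Gad1, which encodes the enzyme that the transgene reports and thus checks the sort, had ratios of 0.85, 0.80 and 0.78, a 1.76-fold difference, and its other probe was at 1.27. Gad2, the second glutamate decarboxylase, had 1.92, 1.86 and 1.90, a 3.71-fold difference. The vesicular GABA transporter Slc32a1 averaged 0.64 ± 0.08. The GABA transporter Slc6a11, which is known from astrocytes, was lower at -1.86 ± 0.09, and the GABA transaminase Abat was not called at -0.08 ± 0.06. All 6 were well above background in the sorted cells on all 3 arrays.

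Dusp4, a phosphatase that switches off MAP kinases, was the highest of the named genes that are not transcription factors or Dlx transcripts, with ratios of 3.33, 3.38 and 3.29 and a 10.1-fold difference. Both of its probes were higher. Tiam2, a Rac exchange factor, averaged 3.13 ± 0.07, and Malat1, a nuclear long non-coding RNA, 3.12 ± 0.09. Dlx6os2, a further transcript of the Dlx5 and Dlx6 locus, averaged 3.11 ± 0.16. Btg1, an antiproliferative factor, was at 2.81 ± 0.07 with both probes higher. The remaining genes named by the rule were Tmem238 at 3.10, Fgb, the fibrinogen beta chain, at 3.01, Cyp11b2, the aldosterone synthase, at 2.74, Loxl2, a lysyl oxidase, at 2.68 and Stambpl1, a deubiquitinase, at 2.65. Tmem238 had the widest spread among them, with 3.52, 3.38 and 2.39. All 15 were also called higher than in the other 3 regions, as were 13.8% of all genes. For 8 of them the 3 olfactory bulb arrays lay above all 9 arrays of the other regions, which 5.98% of all genes did. The 15 genes were chosen for high values on the same 3 arrays, so these counts are a description. Tiam2 was called lower than in cortex and striatum, where it averaged 3.39 and 3.38, against 1.03 in cerebellum. Fgb averaged 3.09 in cortex, and the 2 Stambpl1 probes had opposite signs against the other regions. The other probes of Loxl2 and Stambpl1 were at 0.30 and 0.24 against total brain. For Loxl2, higher by 0.60 than in the other regions, the sorted-cell channel alone was lower by -0.30, and the difference lay in the reference channel.

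**Figure D2:**
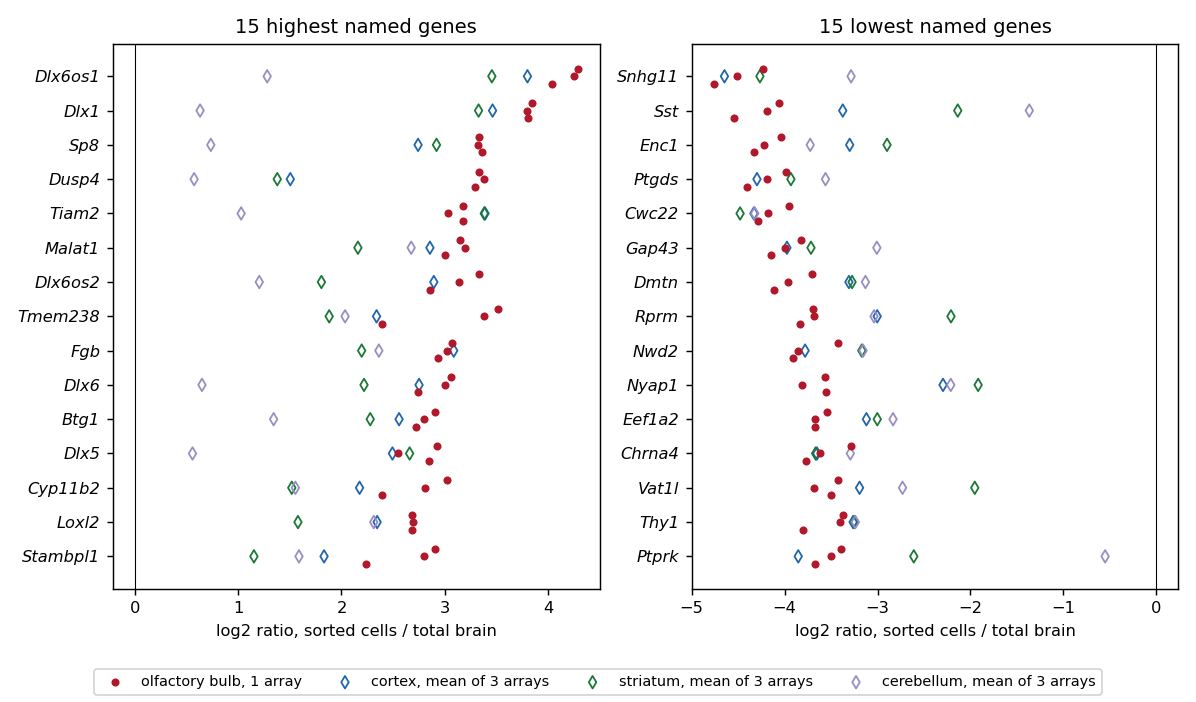
Log2 ratio of sorted cells over total brain for the 15 highest and 15 lowest genes named by the rule; red points are single olfactory bulb arrays and open diamonds are means of 3 arrays from cortex, striatum and cerebellum. Dlx1 and Sp8 show 3 red points within 0.1 of each other and right of the other regions, and Sst shows them left of cortex, striatum and cerebellum.

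The lowest ratios were those of Snhg11 and Sst. Snhg11, a long non-coding RNA that hosts small nucleolar RNAs, had -4.23, -4.52 and -4.76 on the 3 arrays, and all 5 of its probes were lower. Sst, the peptide somatostatin that defines a class of cortical interneurons born in the medial ganglionic eminence, had -4.06, -4.19 and -4.55 and averaged -4.26 ± 0.09 (n = 3, adjusted p = 3.66e-18). Enc1, an actin-binding protein of early neurons, averaged -4.20 ± 0.07 and Gap43, the growth cone protein, -3.99 ± 0.08. All 15 genes named at this end had both channels above background, so their ratios are measured on both sides.

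The promoter of Sst is shown as that of the gene with the second lowest ratio, because it is known for its cyclic AMP response element. It is from RefSeq on GRCm38.p6, chr16:23890795-23891094 on the minus strand, with the element TGACGTCA, which reads the same on both strands, in capitals.
Sst: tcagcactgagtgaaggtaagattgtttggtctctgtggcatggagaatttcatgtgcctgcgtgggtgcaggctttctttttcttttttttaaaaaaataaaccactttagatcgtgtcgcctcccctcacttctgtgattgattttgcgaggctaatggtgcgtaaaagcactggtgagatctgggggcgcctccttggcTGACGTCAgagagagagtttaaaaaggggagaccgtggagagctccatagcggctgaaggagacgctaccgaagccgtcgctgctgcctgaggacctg
The element lies 48 bases before the transcript start, and 1.79% of all promoters in the table hold it. Of the 15 lowest genes, 11 had a promoter in the table and only that of Sst held these letters.

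Among the other lowest genes, Ptgds, the prostaglandin D2 synthase of meninges and choroid plexus, averaged -4.19 ± 0.08, and Cwc22, a splicing factor, -4.14 ± 0.07. Dmtn, an actin-binding protein, was at -3.93 ± 0.08, Rprm, a cell cycle inhibitor, at -3.74 ± 0.09 and Eef1a2, the translation elongation factor of mature neurons, at -3.63 ± 0.07. Chrna4, a nicotinic receptor subunit, was at -3.56, Thy1, a surface protein of maturing projection neurons, at -3.53 and Ptprk, a receptor tyrosine phosphatase, at -3.52. Nwd2, Nyap1 and Vat1l were at -3.73, -3.64 and -3.54. By their weakest probe Dmtn was at -0.13, Chrna4 at -0.57 and Nwd2 at -0.73. Of the 15 lowest genes, 12 were also called lower than in the other 3 regions, as were 16% of all genes. The 15 were chosen for low values on the same 3 arrays, so this count is a description. Chrna4 and Nwd2 were not called, and Chrna4, with a difference of -0.02, stood at -3.65 in cortex, -3.67 in striatum and -3.29 in cerebellum. Cwc22 was called higher than in the other regions, by 0.24 ± 0.08, but not without the first olfactory bulb array (0.15) or the second (0.26).

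Genes known from olfactory bulb interneurons went both ways. Of 31 listed and measured, 15 were higher than in total brain, 12 were lower and 4 were not called, with a median ratio of 0.06. Over all genes 36.7% were higher and 31.2% lower. In this list transcription factors stood at both ends. Etv1 had ratios of 2.66, 2.67 and 2.60, a 6.25-fold difference. Tshz1, a zinc finger factor of bulb granule cells, had 1.79, 1.82 and 1.87. Pbx3 averaged 1.68 ± 0.07, Meis2 1.52 ± 0.07, Sall1 1.26 ± 0.07, Pax6 1.13 ± 0.06 and Zic1 0.84 ± 0.08. By its other probe Pbx3 was at 0.37. The low end also held markers of particular mature classes. Th, the rate-limiting enzyme of dopamine synthesis, had ratios of -1.29, -1.45 and -1.04, Nr4a2, an orphan receptor of dopaminergic cells, averaged -2.51 ± 0.08 and Penk, the enkephalin precursor of a granule cell class, -2.18 ± 0.08. Calb1 was at -1.67 ± 0.17 with a signal well above background on only 1 of the 3 arrays in the sorted cells, and the peptide precursor Trh at -1.33 ± 0.08. Nr2f1 and Nr2f2, nuclear receptors of interneurons from the caudal ganglionic eminence, were at -2.51 ± 0.08 and -1.92 ± 0.07.

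These ratios compare a sorted pool with a whole organ. In such a pool fewer cells of a type and less RNA per cell cannot be told apart, and a transcript that is abundant elsewhere in the brain gives a low ratio even where the sorted cells express it. The other sorted regions carry the same reference, and the difference from them was tested in the same fit. Against the mean of cortex, striatum and cerebellum, 29.8% of genes were called, of which 3767 genes (13.8%) were higher in olfactory bulb GABAergic cells and 4360 (16%) were lower. With a 2-fold difference as well 0.602% of genes were called, 87 higher (0.319%) and 77 lower (0.282%). The number of higher genes dropped to 2438 without the first olfactory bulb array. Against cortex and striatum alone 3269 genes (12%) were higher and 3127 (11.5%) lower, with 2099 higher without the first array and 2045 higher and 2027 lower without the second. With median centring in place of loess the share of higher genes among all called ones changed to 60.5%, against 46.4%, for the difference from all 3 regions, and to 66.3%, against 51.1%, for cortex and striatum alone. Of the 3936 genes that were called and at least 2-fold different from total brain, 1992 did not pass the test against the other regions and 110 differed from them at least 2-fold in the same direction.

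Calretinin was close to total brain in olfactory bulb cells and far below it in the other sorted regions. Calb2, a calcium-binding protein of periglomerular and superficial granule cells, had ratios of -0.16, -0.30 and -0.20 in olfactory bulb cells. The means were -2.36 ± 0.08 in cortex, -2.30 ± 0.16 in striatum and -1.78 ± 0.06 in cerebellum (SD, n = 3 each). Olfactory bulb cells were thus higher than the other regions by 1.92 ± 0.08 (SE, adjusted p = 6.61e-12), no array overlapped, and all 3 probes gave the same sign. Gng4, a G protein gamma subunit, had a difference of the same size, with -0.83, -0.94 and -1.05 in olfactory bulb cells and means of -2.68, -2.96 and -2.94 in cortex, striatum and cerebellum, 1.92 ± 0.11 higher in olfactory bulb cells.

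Of the 31 bulb interneuron genes 12 were higher than in the other 3 regions and 8 lower, and 14 were higher and 6 lower than in cortex and striatum. Over all genes 13.8% were higher and 16% lower than in the 3 regions, and 12% higher and 11.5% lower than in cortex and striatum. With median centring 15 of the 31 were higher and 3 lower than in the 3 regions. For 11 of the 31 the 3 olfactory bulb arrays lay above all 9 arrays of the other regions, which 5.98% of all genes did, and for 4 they lay below all 9, which 6.14% of all genes did. Etv1 was higher than the other regions by 1.74 ± 0.08, of which 0.99 was left against cortex and striatum. Sall1 was higher by 1.04 ± 0.08, Meis2 by 0.96 ± 0.08 and Pax6 by 0.77 ± 0.07, and each of them stayed called against cortex and striatum, at 0.77, 0.57 and 0.84. Tshz1 and Pbx3 lay at 1.79 to 1.87 and 1.66 to 1.72 on the 3 olfactory bulb arrays, above every array of the other regions, which reached at most 1.19 and 0.90. Nr2f1 was lower than in the other regions by -1.16 ± 0.10 and Nr2f2 by -0.91 ± 0.09, and Th by -0.47 ± 0.08, which was not called with median centring (-0.27).

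**Figure D3:**
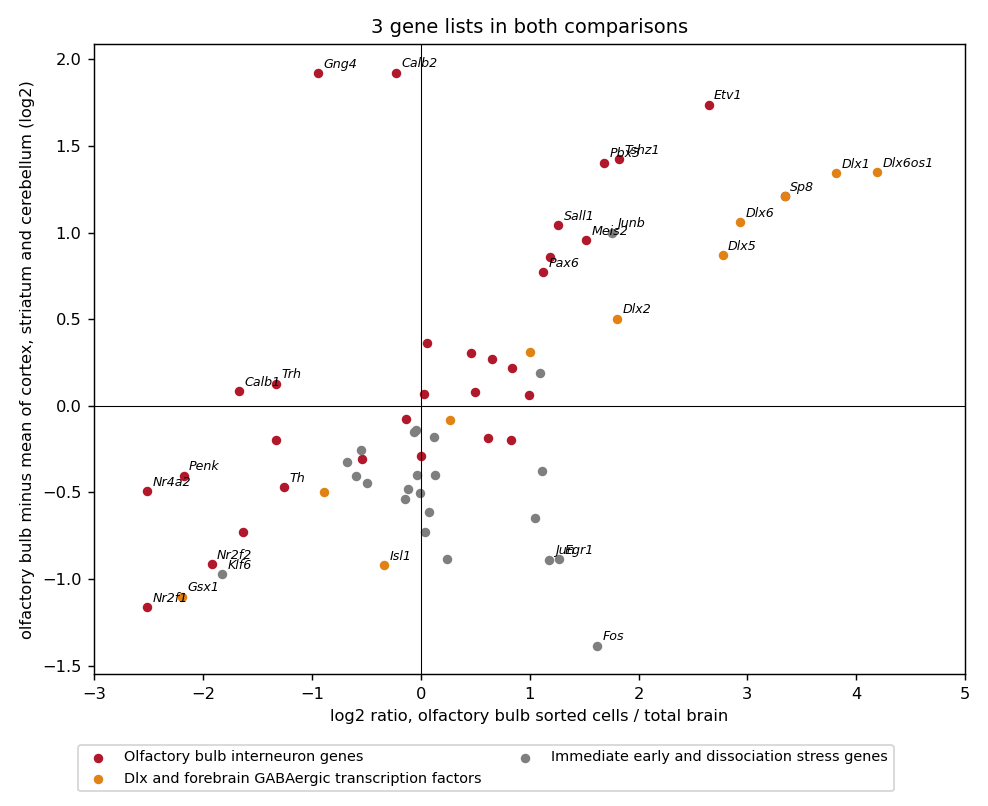
Ratio of olfactory bulb sorted cells over total brain (horizontal axis, log2) and difference of olfactory bulb cells from the mean of cortex, striatum and cerebellum (vertical axis, log2) for members of 3 gene lists. Both axes use the same olfactory bulb values. Calb2 and Gng4 lie high on the vertical axis at 1.92 and left of 0 on the horizontal one, and Fos lies at 1.62 and -1.38.

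The Dlx genes also stood higher in olfactory bulb cells than in the other regions, by less once cerebellum was set aside. Dlx6os1 was higher by 1.35 ± 0.08, Dlx1 by 1.34 ± 0.08 and Dlx6 by 1.06 ± 0.10. Against cortex and striatum 0.56, 0.42 and 0.45 were left, all called, while Dlx5 had 0.20, which was not called (adjusted p = 0.188). Dlx1 was not called against cortex and striatum when ratios were scaled between arrays (0.23). Dlx1 averaged 3.46 in cortex, 3.33 in striatum and 0.63 in cerebellum. Gad1 showed no difference that passed the test, at -0.03 ± 0.11 against the 3 regions (adjusted p = 0.842), and Gad2 was higher by 0.39 ± 0.09 against the 3 regions and by 0.09 against cortex and striatum, which was not called.

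The 10 genes with the highest difference from the other regions that the rule names were Kitl, Dusp4, Pcbp3, Calb2, Gng4, Epb41l3, Gas2l3, Fgfr2, Etv1 and Otud7a. Kitl, the ligand of the Kit receptor, had ratios of -0.46, -0.48 and -0.63 in olfactory bulb cells, against means of -2.77 in cortex, -2.26 in striatum and -3.12 in cerebellum, a difference of 2.20 ± 0.15. Its 2 probes had opposite signs against total brain and the same sign against the other regions, and with median centring Kitl was not called against total brain (-0.05). Dusp4 lay between 3.29 and 3.38 on the olfactory bulb arrays, against 0.41 to 1.79 on the 9 other arrays, a difference of 2.18 ± 0.10. Fgfr2, a fibroblast growth factor receptor, had ratios of 1.48, 1.42 and 1.42 in olfactory bulb cells, against means of 0.09, 0.17 and -1.19 in cortex, striatum and cerebellum.

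Pcbp3, an RNA-binding protein, stood at 1.40, 1.34 and 1.47 on the olfactory bulb arrays and averaged -0.49, -0.46 and -0.96 in cortex, striatum and cerebellum. Epb41l3, a membrane skeleton protein, stood at 0.56 ± 0.06 in olfactory bulb cells (SD, n = 3) and was below 0 in each of the other regions. Gas2l3, which links actin and microtubules, was at 1.78 ± 0.17 (SD, n = 3) and Otud7a, a deubiquitinase, at 0.79 ± 0.11. GABAergic cells sorted from whole brain averaged 0.46 for Otud7a, -0.49 for Pcbp3, -0.60 for Epb41l3 and -0.49 for Gas2l3. These values are those of the brightest probe. By the weakest probe the difference from the other regions was 0.24 for Gas2l3, 0.21 for Fgfr2 and 0.55 for Epb41l3. Etv1, Dusp4 and Fgfr2 also belong to a list of 22 measured MAP kinase phosphatases and growth factor feedback genes, of which 7 were higher and 11 lower than total brain and 7 higher and 7 lower than the other regions. With median centring these counts were 9 higher and 6 lower against total brain, and 9 higher and 4 lower against the other regions. Over all genes, with loess, 36.7% were higher and 31.2% lower than total brain, and 13.8% higher and 16% lower than the other regions. Dusp6 at 1.02 ± 0.09 and Etv4 at 1.16 ± 0.07 were higher than total brain as well.

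The 10 genes with the lowest difference included Zfhx3, Foxp1, Nkx2-1 and Sst. Zfhx3, a homeobox and zinc finger factor, had ratios of -1.23, -1.25 and -1.31 in olfactory bulb cells, against 0.77 ± 0.06 in cortex, 1.20 ± 0.16 in striatum and 0.98 ± 0.11 in cerebellum (SD, n = 3 each), a difference of -2.25 ± 0.08 (SE). Foxp1, a forkhead factor of striatal projection neurons, had -2.29, -2.53 and -2.63 in olfactory bulb cells and means of -0.12 in cortex, 0.35 in striatum and -1.51 in cerebellum. Nkx2-1, which sets up the medial ganglionic eminence, had -1.62, -2.13 and -1.85 in olfactory bulb cells and means of -0.01, 1.00 and -1.36 in cortex, striatum and cerebellum; it was well above background on 1 of the 3 olfactory bulb arrays in the sorted channel. Lhx6, which is not one of the 10 and acts after Nkx2-1 in the same lineage, averaged -0.57 ± 0.06 in olfactory bulb cells, 0.31 ± 0.08 in cortex and 0.78 ± 0.14 in striatum (SD, n = 3 each), and was not called against total brain with median centring (-0.12). Sst differed by -1.97 ± 0.10 from the other regions. GABAergic cells sorted from whole brain (4 arrays) were not part of this comparison. They averaged -1.68 for Zfhx3, -2.24 for Foxp1, -1.76 for Nkx2-1 and -3.73 for Sst, so low values were not particular to olfactory bulb cells.

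Id4, an inhibitor of basic helix-loop-helix factors, stood at -1.23 ± 0.09 in olfactory bulb cells, 0.87 ± 0.09 in cortex and 1.00 ± 0.16 in striatum, and its range overlapped with cerebellum at -1.20 ± 0.03 (SD, n = 3 each). The remaining genes at this end were the cell adhesion molecules Cadm1 (-1.73) and Chl1 (-1.61), the synaptic vesicle protein Rph3a (-1.51), the signalling adaptor Nyap1 (-1.50) and the secreted protein Scube1 (-1.50), given as differences from the other regions. By its weakest probe Scube1 differed by only -0.05, Cadm1 by -0.98 and Rph3a by -0.89. Each of the 10 was lower than total brain too. The 20 genes were chosen for their difference on these arrays, and in 19 of them, all but Id4, no olfactory bulb array overlapped with the other regions. Of all genes 5.98% lay above and 6.14% below all 9 arrays. Divided between the dyes, the difference of all 20 lay mostly in the sorted-cell channel. Gas2l3 had the largest opposite part in the reference channel, with 2.34 in the sorted-cell channel and -0.58 in the reference channel. Of all 164 genes with a called 2-fold difference from the other regions, 16 had the larger part in the reference channel.

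**Figure D4:**
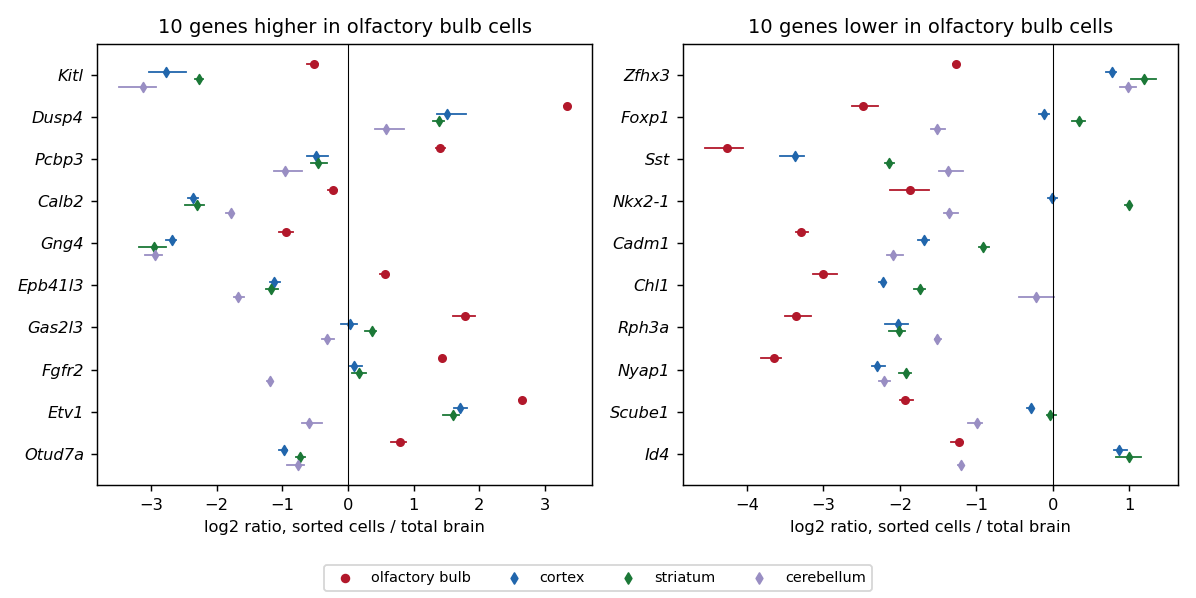
Log2 ratio of sorted cells over total brain for the 10 genes highest and the 10 lowest in olfactory bulb cells against the other regions; points are means of 3 arrays, bars reach from the lowest to the highest array, and olfactory bulb is drawn uppermost for each gene. The red bars stand clear of the others for every gene except Id4, where cerebellum lies at the same level of -1.20.

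Genes of neuroblast migration went both ways, with 11 higher and 14 lower of 30 measured against total brain. Over all genes 36.7% were higher, which the higher count is near, and 31.2% were lower. Igfbpl1, an insulin-like growth factor binding protein of young neurons, had ratios of 2.32, 2.25 and 2.31. Robo2, a receptor for Slit guidance cues, had 1.95, 1.96 and 1.80 with all 6 probes higher, and Robo1, its relative, had -0.38, -0.47 and -0.50, which was not called with median centring (-0.03). Between regions the receptors also differed in direction, Robo2 being higher in olfactory bulb cells than in the other 3 regions by 1.40 ± 0.08 and Robo1 lower, at -1.19 ± 0.07. Prokr2, the prokineticin receptor that guides neuroblasts into the bulb, had 1.65, 1.41 and 1.14 and was higher than in the other regions by 1.27 ± 0.11. The reelin receptor Lrp8 was at 1.74 ± 0.06 by its brightest probe and at 0.22 by its other one. Cd24a, a surface marker of neuroblasts, was at 1.09 ± 0.10. Doublecortin (Dcx), the microtubule protein of migrating neurons, had 1.01, 1.01 and 0.97, and was higher than in the other regions by 0.87 ± 0.09. Reln itself was at -2.26 ± 0.08, the guidance cue Ntn1 at -2.15 ± 0.07 and the semaphorin receptor Nrp1 at -1.89 ± 0.09. By its other probes Nrp1 was at -0.62 and -0.04. The neural cell adhesion molecule Ncam1 was at 1.17 ± 0.09 by its brightest probe, but only 2 of its 7 probes were above 0.

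Genes of maturing neurons were mostly lower than in total brain, with 3 higher and 21 lower of 25 measured and a median of -1.14. Over all genes 36.7% were higher and 31.2% lower. The neurofilament Nefl had ratios of -3.07, -3.48 and -3.44, the neuronal hydrolase Uchl1 averaged -2.99 ± 0.08, the synaptic vesicle protein Syp -2.64 ± 0.06 and the tubulin Tubb3 -1.45 ± 0.09. The exceptions were Dcx, Map2, a dendritic microtubule protein at 0.95 ± 0.07, and Stmn4, a stathmin at 0.34 ± 0.09 that was not called without the second array (0.22). Map2 was also higher than in the other regions by 0.86 ± 0.09. Against the other regions the list moved less, with 4 higher and 8 lower, and 4 lower with median centring. Of all genes 13.8% were higher and 16% lower than in the other regions.

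Among receptors for GABA and glutamate and among chloride transporters more genes were lower than higher. Over all genes 36.7% were higher and 31.2% lower than total brain. Of 17 GABA receptor subunits 2 were higher and 9 lower than total brain, and 6 higher and 10 lower with median centring. Gabra2, the alpha2 subunit of immature brain, averaged -2.96 ± 0.07 by its brightest probe and -0.16 and -0.20 by its other probes, Gabbr2 averaged -2.58 ± 0.11 and Gabra5 -2.48 ± 0.07. By its other probe Gabbr2 was at -0.79. Of 16 AMPA, kainate and NMDA receptor subunits 3 were higher and 10 lower, with Grik1 at -2.19 ± 0.10 and Gria4 at -2.13 ± 0.07. The other Grik1 probes were at -1.55 and -0.03. Of 7 chloride transporters none were called higher by limma, with 0 also at an unadjusted p under 0.05, and 5 were called lower. With median centring 3 were higher and 4 lower. Slc12a5 (KCC2), which lowers chloride in mature neurons, averaged -1.75 ± 0.06 and Slc12a2 (NKCC1), which loads it, -0.76 ± 0.08. Of 17 neuropeptides 4 were higher and 10 lower, with Nts, neurotensin, at -3.14 ± 0.11.

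Markers of the other cells that the bulb holds were mostly lower in the sorted cells than in total brain. The counts stand beside 36.7% higher and 31.2% lower of all genes. Of 15 mitral and tufted cell genes 2 were higher and 12 lower than total brain, with a list median of -0.99, -1.52 and -1.24 on the 3 arrays. Slc17a7, the vesicular glutamate transporter, averaged -2.95 ± 0.16 and was well above background on 1 of 3 arrays in the sorted cells. Tbr1 was at -2.55 ± 0.09, Slc17a6 at -1.47 ± 0.09, Cdhr1 at -1.25 ± 0.17 and Eomes at -0.73 ± 0.07. Of 18 forebrain glutamatergic genes 2 were higher and 14 lower, with a median of -1.38, among them Neurod6 at -2.97 ± 0.10, Fezf2 at -2.90 ± 0.09 and Neurod2 at -2.76 ± 0.08. Of 12 genes of olfactory sensory neurons, whose axons end in the bulb, 4 were higher and 7 lower, with Omp, the olfactory marker protein, at -1.14 ± 0.07 and Gng8 at -1.50 ± 0.14. Stoml3, a stomatin-like protein of their cilia, was higher at 1.12 ± 0.07 and Cnga2, the channel that carries the odour response, at 1.11 ± 0.10, and neither was called against the other regions (0.17 and 0.13). Without the first array 2 genes of this list were called higher.

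Glial genes went both ways, beside 36.7% higher and 31.2% lower of all genes against total brain. Ensheathing glia are the cells that wrap olfactory axons. Of 13 ensheathing glia genes 3 were higher and 4 lower than total brain, with list medians of 0.08, -0.02 and 0.02 on the 3 arrays, and none were below background on all 3 arrays. With median centring 8 were higher and 4 lower, with a median of 0.41. Frzb, a secreted Wnt antagonist of these cells, had 0.15, -0.13 and 0.02 in olfactory bulb cells and means of -1.23 in cortex, -1.03 in striatum and -0.81 in cerebellum, a difference of 1.04 ± 0.14 (adjusted p = 1.98e-05). Fabp7 was at -1.57 ± 0.07 and Sox10 at -1.86 ± 0.09, with 1 of the 2 Sox10 probes above 0. Of this list 4 genes were higher than in the other regions and none were lower by limma, with 1 lower at an unadjusted p under 0.05. Over all genes 13.8% were higher and 16% lower than in the other regions. The list median was 0.01 over the olfactory bulb arrays, -0.27 in cortex, -0.25 in striatum and 0.07 in cerebellum.

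Of 20 measured genes of astrocytes and radial glia, sorted cells had 7 higher and 13 lower than total brain, with list medians of -0.52, -0.57 and -0.73. Over all genes 36.7% were higher, which the higher count is near, and 31.2% were lower. Aldoc was at -3.02 ± 0.07, Gja1 at -2.60 ± 0.11, Apoe at -2.48 ± 0.09 and Slc1a3 at -1.22 ± 0.07 (1 of 2 probes above 0). By its other probe Aldoc was at -0.91. The progenitor factors Sox2 and Hes5 were higher, at 1.30 ± 0.07 and 1.09 ± 0.08, while Hes1 was lower at -2.29 ± 0.08. Of 13 oligodendrocyte lineage genes 5 were higher and 7 lower, with Olig1 at -2.64 ± 0.08, Pdgfra at -2.39 ± 0.06 and Olig2 at -1.78 ± 0.07. Of 16 microglial genes 1 was higher and 13 lower, with Tyrobp at -1.67 ± 0.06 and Csf1r at -1.65 ± 0.06. Of 15 endothelial and mural genes 4 were higher and 10 lower, with Cldn5 at -2.38 ± 0.10 and Slco1a4, a transporter of brain endothelium, at 1.21 ± 0.06. Of 15 genes of meninges and choroid plexus 1 was higher and 10 lower, with Igf2 at -3.44 ± 0.08. Hba-a1, the haemoglobin alpha chain, was at -3.15 ± 0.11.

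Several of these markers were also lower than in the other sorted regions. Of the 16 microglial genes none were higher by limma, with 1 at an unadjusted p under 0.05, and 11 were lower. Of all genes 13.8% were higher and 16% lower. Without the second array 6 microglial genes were called lower, and with median centring 7 were. Tyrobp was lower by -1.04 ± 0.07, Pdgfra by -1.02 ± 0.07 and Cldn5 by -0.94 ± 0.11. Of 13 oligodendrocyte lineage genes, the list of Pdgfra, 1 was higher and 7 lower. Of 15 endothelial and mural genes, the list of Cldn5, 3 were lower, near the share over all genes, and 12 were not called. None of these 15 were higher by limma, with 2 at an unadjusted p under 0.05, and the list median was 0.06. Apod, an apolipoprotein of meninges and glia, went the other way, with ratios of -1.61, -1.60 and -1.84 in olfactory bulb cells and means of -3.65, -2.93 and -2.71 in cortex, striatum and cerebellum, a difference of 1.41 ± 0.09. The part of these markers in the other differences between regions was not tested.

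**Figure D5:**
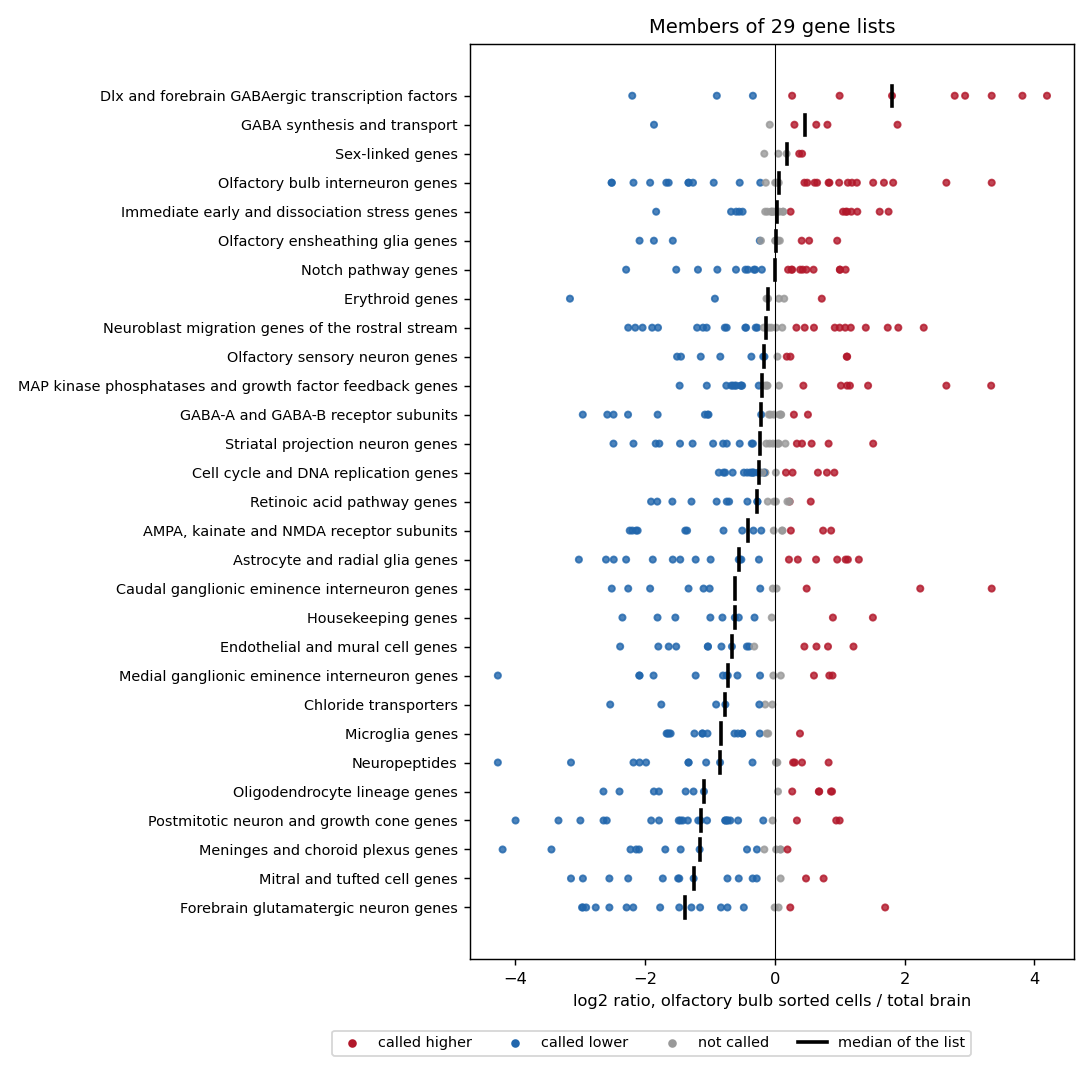
Log2 ratio of olfactory bulb sorted cells over total brain for the measured members of 29 gene lists, ordered by the list median (black bar); red points were called higher, blue points lower and grey points were not called. The list of Dlx and forebrain GABAergic factors has the highest median at 1.81 and the forebrain glutamatergic list the lowest at -1.38, while bulb interneuron genes spread on both sides of 0.

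Lineage markers of other GABAergic cells were low too. Over all genes 36.7% were higher and 31.2% lower than total brain, and 13.8% higher and 16% lower than in the other regions. Of 15 genes of medial ganglionic eminence interneurons 3 were higher and 10 lower than total brain, and 2 were higher and 6 lower than in the other regions. With median centring 5 were higher and 9 lower than total brain. Lhx8 averaged -1.22 ± 0.09. Of 12 genes of the caudal eminence 3 were higher and 7 lower, the higher ones being Sp8, Htr3a and Adarb2, an RNA editing protein, at 2.24 ± 0.09, and Npas1 was lower at -1.10 ± 0.07. The other probe of Adarb2 was at 0.09. Of 24 striatal projection neuron genes 5 were higher and 12 lower than total brain, and 2 were higher and 12 lower than in the other regions, with Ebf1 at -1.83 ± 0.12 against total brain. With median centring 9 striatal genes were higher and 12 lower than total brain, and 4 higher and 8 lower than in the other regions.

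Immediate early genes, which also respond to the dissociation of tissue, were lower in olfactory bulb cells than in the other sorted regions for most of the list. Of 23 measured 8 were higher and 5 lower than total brain, and 14 higher and 2 lower with median centring. Over all genes, with loess, 36.7% were higher and 31.2% lower than total brain, and 13.8% higher and 16% lower than in the other regions. Fos had ratios of 1.37, 1.78 and 1.69 in olfactory bulb cells and means of 2.49 in cortex, 3.09 in striatum and 3.43 in cerebellum, so that it was lower in olfactory bulb cells by -1.38 ± 0.17 and no array overlapped. Egr1 averaged 1.27 ± 0.10 and Jun 1.18 ± 0.08 in olfactory bulb cells, lower than in the other regions by -0.89 ± 0.11 and -0.89 ± 0.09. Against the other regions 1 gene of the list was higher and 16 were lower. Junb was the higher one, at 1.75 against total brain with 1 of its 2 probes above 0, and Klf6 was at -1.83 ± 0.08. Of 22 cell cycle genes 5 were higher and 13 lower than total brain, and 14 were lower than in the other regions. With median centring 8 were higher and 6 lower than total brain, and 2 higher and 12 lower than in the other regions. None were higher than in the other regions by limma, with 1 at an unadjusted p under 0.05. Mcm6, a replication helicase subunit, was at -0.86 ± 0.09 and Mki67 at 0.80 ± 0.13 against total brain. Of 20 Notch pathway genes 10 were higher and 10 lower than total brain, and of 17 retinoic acid pathway genes 2 were higher and 10 lower. With median centring 10 Notch genes were higher and 5 lower, and 4 retinoic acid genes higher and 9 lower.

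Housekeeping genes were not at a ratio of 0. Of 11 housekeeping genes 2 were higher and 8 lower than total brain, with B2m at -2.35 ± 0.08 and Tbp at 0.90 ± 0.08. Actb was at 1.43 and 1.60 on 2 of the arrays, its spot on the other array, the first, having been marked by the scanner software and left out. Of 5 sex-linked genes 2 were higher and none lower by limma, with 0 lower at an unadjusted p under 0.05, and of 7 erythroid genes 1 was higher and 2 lower. Over all genes 36.7% were higher, which the higher count of sex-linked genes is near, and 31.2% were lower. With median centring 4 sex-linked genes were higher, and 4 erythroid genes were higher and 3 lower.

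A gene was represented by 1 probe, and probes of a gene could disagree. Of 8304 genes with 2 or more probes, 3735 had probes on both sides of 0, and 48 had 1 probe at least 2-fold higher and another at least 2-fold lower. The widest range belonged to Chd9, a chromatin remodeller, whose 6 probes ran from -2.63 to 1.72. Map4, a microtubule protein, ran from -1.59 to 2.66 over 4 probes, and App, the amyloid precursor protein, from -2.30 to 1.66 over 4. Of the genes named above by the rule for total brain, all probes had the sign of the value given, which was a condition of the rule.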

How the data were processed

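Each array was an Agilent 2-colour array with sorted-cell cDNA in Cy5 and total brain cDNA in Cy3, per the labels' protocols. The labels also describe the Cy3 channel as red, so the direction of the ratio rests on the dye names. The deposited files hold mean and background intensity of each spot and channel, and a log10 ratio; per the file headers that ratio was made with background correction off, spatial detrending, linear and lowess dye normalization and surrogate values. The software was Agilent Feature Extraction 8.1.1.1, per the submitters' processing notes. The deposited table of log10 ratios equalled the scanner ratio within 0.005 on all 16 arrays; its olfactory bulb columns had medians of 0, 0 and 0.00275, its direction is that of the scanner ratio and no centring is stated.

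From the mean and background intensity, ratios were computed anew with limma 3.58.1 in R 4.3.3 (normexp background correction with offset 50, loess within each array, control and marked spots given no weight and marked spots left out). Spots of a probe were averaged. The brightest of all probes of a gene stood for it. A probe passed the filter when well above background on at least 3 arrays in the sorted channel or 8 in the reference channel. A gene was kept when its brightest probe passed, which left 27261 of 28654 genes. RefSeq (GRCm38.p6) supplied the gene name through the accession of 21452 probes, the symbol of 5426 and an older synonym of 4635, while 9661 probes kept the array's name, which can be old. One fit over all 16 arrays had 5 group means, and its 3 contrasts were olfactory bulb against total brain, against the other 3 regions and against cortex and striatum, with Benjamini-Hochberg adjustment over all genes at 0.05. The p-values measure the spread between arrays; how mice were divided among them is not given, and precision is limited by there being 3 arrays a region. The fit was tested on simulated data.

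The members and the gene lists were chosen with earlier results of these data known. Some genes on the lists are counted but not reported here by name. Named genes were the 15 highest and 15 lowest ratios against total brain and the 10 highest and 10 lowest differences from the other regions, among called genes with a RefSeq symbol whose 3 arrays and whose probes all had that sign, the latter also against cortex and striatum, together with members of the lists and the 3 genes with the widest disagreement among probes. Alternatives were the background correction, the source and normalization of the ratio, the filter, the treatment of probes, the samples in the fit, the replicate number as a term, and leaving out each olfactory bulb array.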

Additional observations from a re-analysis of the deposited data

Results flagged for a closer look

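The effect of sorting against total brain differed between olfactory bulb and the other 3 regions for the genes below, by the contrast in the limma fit at an adjusted p under 0.05. They are the called genes among those whose difference from the other regions is reported by value, and other named genes also passed this contrast. Values are log2 differences of the brightest probe, olfactory bulb minus the mean of cortex, striatum and cerebellum. Both sides carry the same total brain RNA, and 3 arrays stand for each region.

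Among the genes chosen for the size of this difference, the higher ones were Kitl (2.20), Dusp4 (2.18), Pcbp3 (2.04), Calb2 (1.92), Gng4 (1.92), Epb41l3 (1.89), Gas2l3 (1.76), Fgfr2 (1.74), Etv1 (1.74) and Otud7a (1.61). The lower ones were Zfhx3 (-2.25), Foxp1 (-2.06), Sst (-1.97), Nkx2-1 (-1.74), Cadm1 (-1.73), Chl1 (-1.61), Rph3a (-1.51), Nyap1 (-1.50), Scube1 (-1.50) and Id4 (-1.45). Of the genes chosen for their ratio to total brain, Loxl2 (0.60) and Cwc22 (0.24) were higher.

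Transcripts of GABA synthesis and of the Dlx group that were higher were Gad2 (0.39), Dlx6os1 (1.35), Dlx1 (1.34), Dlx6 (1.06), Dlx5 (0.87) and Sp8 (1.21). Further transcription factors of bulb interneurons that were higher were Tshz1 (1.42), Pbx3 (1.40), Meis2 (0.96), Sall1 (1.04) and Pax6 (0.77). Lower were Th (-0.47), Nr2f1 (-1.16), Nr2f2 (-0.91), Lhx6 (-0.73), Isl1 (-0.92) and Gsx1 (-1.10).

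Of the genes of migrating and maturing neurons, higher values belonged to Robo2 (1.40), Prokr2 (1.27), Dcx (0.87) and Map2 (0.86), and lower ones to Robo1 (-1.19) and Reln (-1.09). Markers of other cells were higher for Frzb (1.04) and Apod (1.41) and lower for Tyrobp (-1.04), Cldn5 (-0.94) and Pdgfra (-1.02). The immediate early genes were lower, with Fos (-1.38), Egr1 (-0.89) and Jun (-0.89). The part of cell composition, of dissociation and of the dimmer reference channel in these differences was not tested.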

How the results depend on the processing

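Of 2057 values of 147 named genes against total brain under the alternatives, 2041 kept their direction and their side of the threshold, as did 694 of 701 values of 54 genes against the other 3 regions and 669 of 675 values of 52 genes against cortex and striatum. Some alternatives could not change the direction, since they left the values of these genes as they were. These were the fits without the filter, with the 12 regional arrays alone and with the 3 olfactory bulb arrays alone. Many of the genes were also chosen for large values on these arrays, so the counts are a description. The cause of each change below was not tested. With median centring, against total brain, Abat was at 0.27 and Calb2 at 0.0298, Robo1 (-0.03), Lhx6 (-0.12) and Kitl (-0.05) did not pass, and Gad1 differed by 0.12 from the other 3 regions and by 0.0376 from cortex and striatum. With the mean of the probes, Ncam1 was at -0.18, Slc1a3 at 0.15, Kitl at 0.0126, Chd9 at 0.14 and Map4 at 0.0850 against total brain, Gad1 differed by 0.0527 from the 3 regions and by 0.0406 from cortex and striatum, and Gad2 by -0.0226 from cortex and striatum. With scaling between arrays Gad2 differed by -0.0172 from cortex and striatum, and Dlx1 by 0.23 without passing the test. With median centring Th differed from the 3 regions by -0.27 and Reln from cortex and striatum by -0.29, neither passing. Cwc22 did not pass against the 3 regions in 4 alternatives (0.15 to 0.26). Frzb lay between -0.0547 and 0.0853 with single olfactory bulb arrays left out.

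Leaving out 1 olfactory bulb array at a time gave 2438 to 3413 genes higher than in the other 3 regions, 2045 to 3102 higher than in cortex and striatum and 2027 to 2879 lower than in cortex and striatum. The lowest numbers came without the first array, without the second and without the second. List medians changed sign with median centring for neuroblast migration (0.16), the cell cycle (0.10) and erythroid genes (0.24), and with the mean of the probes for immediate early genes (-0.02), ensheathing glia (-0.15) and the Notch pathway (-0.01). The ensheathing glia median was also below 0 without the first (-0.02) and the second array (-0.01), and that of the Notch pathway without the second (-0.05) and, at -9.88e-05, with scaling between arrays.

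Deviations of arrays with the same replicate number from their region means correlated at r from -0.113 to 0.228 over 18 pairs, median 0.03. With different numbers r was -0.232 to 0.242 over 36 pairs, median -0.02. The number was not read as a pairing. With 3 arrays a region these values cannot decide whether such arrays shared mice or handling. With the replicate block, 10210 genes were higher and 8695 lower than total brain, 4113 higher and 4713 lower than the other 3 regions, and 3629 higher and 3418 lower than cortex and striatum. The slide as a random block was not run, since each array had its own slide. Of the genes tested, 2019 were not well above background on any olfactory bulb array in the reference channel alone, 632 in the sorted channel alone and 1415 in both; with 1 dim channel the ratio is only a bound, and with both it gives no fold.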
